A study of Mus musculus with 24 samples.

Results

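The comparison described here is of extracellular vesicles (EVs, small membrane-bound particles that cells shed into the medium) released by BV2 cells after transforming growth factor beta (TGF-β) and EVs released by control cells. BV2 is an immortalised mouse microglial cell line, microglia being the resident macrophages of the brain. The TGF-β culture received 50 ng/mL for 72 h, and the labels name no agent for the control. Each group had 3 EV libraries, so 6 of the 24 small RNA libraries of the study were compared, chosen by their column labels. The table lists 1187 microRNA precursors, of which 519 had a count in these 6 libraries and 71 had enough counts to be tested. EVs after lipopolysaccharide (LPS, 100 ng/mL) or interleukin-10 (IL-10, 50 ng/mL) for 72 h, and the matching cells, had 3 libraries each and were used where named. All cells came from this 1 line. Nothing in the labels states whether the 3 libraries within a group were grown separately. The p-values therefore reflect the spread among these libraries alone, and that spread may be technical.

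MicroRNAs are cut from hairpin precursors to mature RNAs of roughly 20 bases that guide Argonaute proteins to messenger RNAs, mainly through bases 2 to 8, the seed. TGF-β signals through its receptor kinases and SMAD proteins, holds microglia in a resting state, and is known in several cell types to change both the transcription and the maturation of microRNAs. EVs carry small RNAs of many kinds, including microRNAs and fragments of ribosomal, transfer and messenger RNA, and their content can differ from that of the cells that release them.

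The mature sequences on which the results turn are given first, from RefSeq (build GRCm38.p6), 5′ to 3′, with the seed in capitals. The tables count precursors and do not separate the mature arms, so for precursors with arms named 5p and 3p the arm shown is one of the possible sources of the counts. The first set holds the precursors with more counts in TGF-β EVs. miR-692 is 1 mature sequence made from 3 precursors, mir-692-1, mir-692-2 and mir-692-3.
miR-692: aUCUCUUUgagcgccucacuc
miR-682: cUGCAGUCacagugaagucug
miR-703: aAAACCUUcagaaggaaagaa
miR-203-3p: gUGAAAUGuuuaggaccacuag

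The second set holds members of the let-7 family, a conserved group best known as brakes on growth and developmental timing, which share the seed GAGGUAG and differ further on.
let-7a-5p: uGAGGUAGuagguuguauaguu
let-7f-5p: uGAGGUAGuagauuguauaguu
let-7g-5p: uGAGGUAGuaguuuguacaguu
let-7i-5p: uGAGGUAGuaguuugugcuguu

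The third set holds the most abundant species and those with fewer counts in TGF-β EVs or changed in the cells.
miR-6236: gCCGUCGCcggcagucagg
miR-6240: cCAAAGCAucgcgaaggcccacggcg
miR-6238: uUAUUAGUcaguggaggaaaug
miR-677-5p: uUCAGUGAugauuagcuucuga
miR-23a-3p: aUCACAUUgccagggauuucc
miR-125b-5p: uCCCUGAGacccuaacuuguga
miR-34a-5p: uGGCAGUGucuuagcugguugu

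In GRCm38.p6, the mature miR-692 sequence lies at chr17:6895259-6895279 on the minus strand (mir-692-1), where GENCODE M21 lists no gene. The copy in mir-692-2 lies at chr4:125504805-125504825 on the plus strand, in an exon of the processed pseudogene Ftl2-ps and an intron of Grik3. The copy in mir-692-3 lies at chr13:74407121-74407141 on the plus strand, in an exon of Ftl1-ps1. miR-682 lies at chr13:75645119-75645139 on the plus strand, in an exon of the processed pseudogene Gm4149. miR-203-3p lies at chr12:112130927-112130948 on the plus strand, with no other gene annotated there. miR-677-5p lies at chr10:128085291-128085312 on the plus strand, in an intron of Atp5b, and GENCODE annotates the locus as a small nucleolar RNA. let-7g-5p lies at chr9:106178846-106178867 on the plus strand, in an intron of Wdr82, and let-7i-5p at chr10:122985698-122985719 on the minus strand, in an exon of the non-coding D630033A02Rik. let-7a-5p of let-7a-1 and let-7f-5p of let-7f-1 lie close together at chr13:48538239-48538260 and chr13:48537889-48537910 on the minus strand, in an exon of the long non-coding RNA 6720427I07Rik. miR-6236 lies at chr9:110281353-110281371 on the plus strand, miR-6240 at chr5:114851973-114851998 on the plus strand and miR-6238 at chr7:53891796-53891817 on the minus strand, with no other gene annotated at any of these. miR-703 lies at chr5:98475616-98475636 on the minus strand, opposite an intron of Cfap299. miR-23a-3p at chr8:84208563-84208583 and miR-34a-5p at chr4:150068473-150068494, both on the plus strand, lie in no other gene. miR-125b-5p of mir-125b-1 lies at chr9:41581940-41581961 and that of mir-125b-2 at chr16:77646279-77646300, both on the plus strand and within non-coding transcripts. Of the 1187 precursors, 1020 were matched to a RefSeq mature sequence by name, and 65 of the 71 tested were.

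The 6 libraries were shallow and of similar depth. Control EVs held 15869 to 18047 counts and TGF-β EVs 15071 to 16728, and the tested precursors took 95.6% to 97.9% of each library. In the shallowest library a precursor at 0 could still have held 0.0199% of the counts (3 counts), a limit that covers counting error only. The normalization factors (TMM, which scales each library so that most precursors are level) were 0.732 to 0.999 in control, 0.643 to 0.820 in TGF-β, 1.52 to 2.28 in LPS and 0.543 to 1.50 in IL-10 EVs. TGF-β library 1 stood apart from its group: chi-square per degree of freedom was 19.3 and 25.7 against the other TGF-β libraries, which differed by 5.18, while pairs of control libraries gave 7.74 to 14.6. Myeloid and microglial precursors were thin in these vesicles, with 7 of 10 having any count and together 0.294% to 0.359% of control and 0.0821% to 0.159% of TGF-β EV counts. Among them mir-223, mir-155 and mir-511 were at 0 in all 6 libraries, and mir-142a, a marker of blood-derived cells, had counts of 10, 6 and 20 in control and 5, 8 and 16 in TGF-β EVs. Precursors typical of other cell types had a count for 18 of 28 and summed to 0.231% to 0.952% of control and 0.322% to 0.998% of TGF-β EVs. The epithelial precursor mir-203 and the muscle precursor mir-1a-1, described below, had counts in all 6 libraries, and the liver precursor mir-122 was at 0 in all 6. Other members of these lists were low. Epithelial mir-205, mir-200a, mir-200c, mir-141 and mir-429 and muscle mir-206 and mir-133a-1 were at 0 in all 6. Muscle mir-1a-2 had 12, 4 and 1 counts in control and 0, 2 and 1 in TGF-β EVs. mir-133a-2 had 0, 0 and 1 against 0, 0 and 0, and mir-133b 1, 0 and 0 against 0, 0 and 2. Of the red cell precursors, mir-451a and mir-486b were at 0 in all 6. mir-144 had 0, 0 and 11 counts in control EVs, and mir-486a 0, 0 and 12 in control and 0, 3 and 0 in TGF-β EVs. The part of other cell types in the results below was not tested.

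Most counts of both groups came from a pair of precursors. In such bulk samples, a change in the number of vesicles of a kind and a change in RNA per vesicle cannot be told apart, and the same holds for cells. mir-6236, whose sequence is generally regarded as a fragment of ribosomal RNA, took 73.7%, 75.8% and 73.9% of the control libraries and 79.0%, 70.4% and 70.7% of the TGF-β libraries. The means were 74.5% ± 1.17 and 73.4% ± 4.88 (SD, n = 3 each), and the groups overlapped (exact permutation test, two-sided, p = 0.7, adjusted p = 0.7 over 3 such tests). mir-6240, of the same kind, took 8.29%, 9.08% and 6.65% against 7.91%, 7.19% and 6.83%. In cells mir-6236 held 0.775% to 0.808% of control and 0.631% to 0.794% of TGF-β libraries, so the vesicle libraries had a makeup of their own in both groups.

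The 13 let-7 precursors together took 4.46%, 3.52% and 5.09% of control and 3.38%, 3.38% and 3.38% of TGF-β EV counts. Each TGF-β library was below each control library, with means of 4.36% ± 0.789 and 3.38% ± 0.00393 (SD, n = 3 each). The exact permutation p of 0.1 is the smallest that 3 against 3 can give, and it became 0.3 after adjustment over the 3 tests. With mir-6236 and mir-6240 left out of the total, the share was 24.8%, 23.3% and 26.2% in control and 25.8%, 15.1% and 15.1% in TGF-β EVs, and the groups overlapped. The precursors other than mir-6236, mir-6240, let-7, mir-692 and mir-682 took 13.0%, 10.3% and 12.2% of control and 7.80%, 9.68% and 8.60% of TGF-β EVs. The 3 copies of mir-692 took 0.340%, 1.13% and 1.87% of control and 1.75%, 8.44% and 9.33% of TGF-β EV counts, where a read may have been counted for more than 1 copy.

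**Figure D1:**
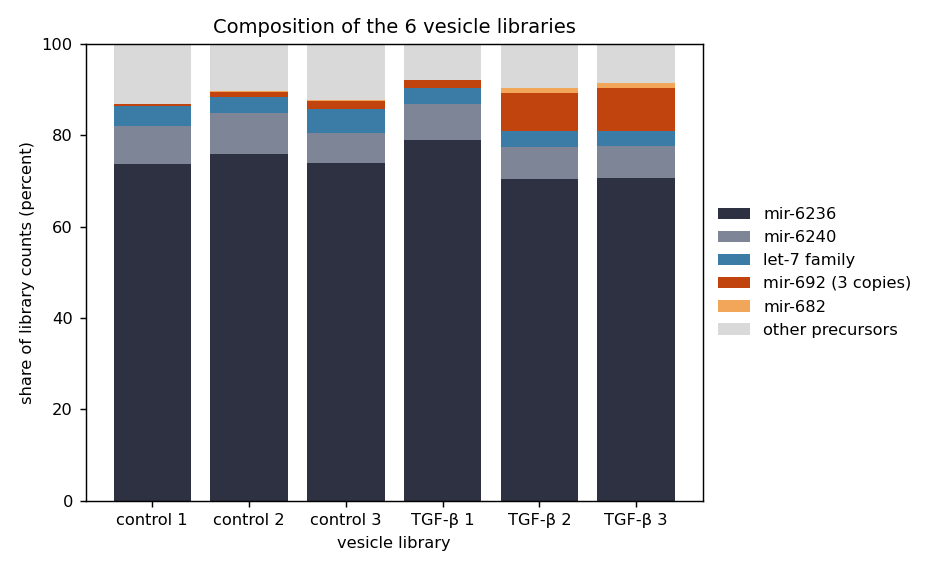
Share of each library's counts (percent, bars from 0 to 100) taken by mir-6236, mir-6240, the let-7 family, the 3 copies of mir-692, mir-682 and all other precursors, in 3 control and 3 TGF-β EV libraries. mir-6236 fills 70.4% to 79.0% of every bar, and the mir-692 segment is largest in TGF-β libraries 2 and 3.

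The number of precursors seen was compared at equal depth. Thinned to 15071 counts, control EVs had 100, 79.7 and 76.9 precursors at 5 or more counts and TGF-β EVs had 60.8, 86.9 and 69.0. The means were 85.6 ± 12.6 and 72.2 ± 13.3 (SD, n = 3 each), and the groups overlapped (exact permutation test, two-sided, p = 0.3, adjusted p = 0.45 over the 3 tests). In the deposited counts, 114 precursors had a count in each control library and 84 in each TGF-β library, and 70 had one in all 6.

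Of 71 precursors tested between TGF-β and control EVs, 3 rose and 0 fell (edgeR quasi-likelihood F test, Benjamini-Hochberg adjusted p under 0.05), which is 4.23% called. The 3 were mir-692-1, mir-692-2 and mir-692-3, which carry the same mature sequence and are not separate measurements. At an unadjusted p under 0.05 there were 5, adding mir-682 and mir-203. Of all 71 estimates 29 were positive and 42 negative, with a median log2 change of -0.18. That median moved with the scaling, to 0.00 with the size factors of DESeq2 and to -0.47 with library totals alone, and changes below are to be read against it. The normalised levels (CPM, counts relative to the TMM-scaled library size) of the groups did not overlap for 11 precursors, 15.5% of those tested. Higher in all TGF-β libraries were mir-692-1, mir-692-2, mir-692-3, mir-682 and mir-6345, and lower were mir-677, let-7g, mir-23b, mir-1a-1, mir-3068 and let-7a-2.

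**Figure D2:**
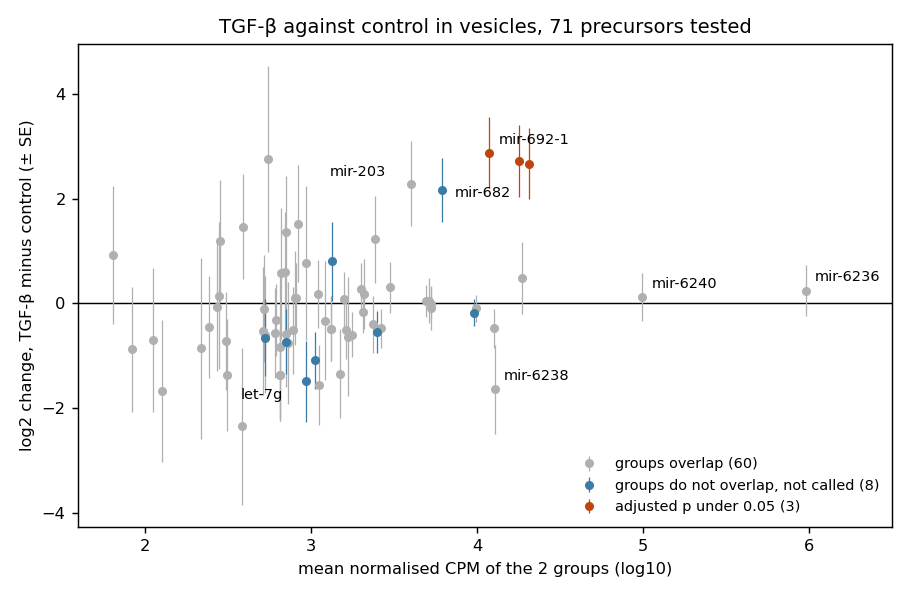
Log2 change between TGF-β and control EVs (vertical, with SE) against the mean normalised CPM of the groups (horizontal, log10) for the 71 precursors tested. The 3 called precursors, all copies of mir-692, sit at 2.67 to 2.88 at high level, while the more abundant mir-6240 and mir-6236 lie at 0.12 and 0.25 (-0.14 and -0.034 with library totals alone).

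mir-692-1 had counts of 13, 50 and 56 in control and 68, 315 and 344 in TGF-β EVs. Every TGF-β library exceeded every control library, and TGF-β library 1 was the lowest of its group as control library 1 was of its own. The log2 change was 2.88 ± 0.67 (SE), or 7.39-fold, with an adjusted p of 0.0447 (edgeR). mir-692-2 had counts of 18, 58 and 133 against 107, 477 and 492, a log2 change of 2.72 ± 0.69 (SE). mir-692-3 had 23, 73 and 149 against 117, 544 and 570, a log2 change of 2.67 ± 0.68 (SE). For these copies the raw counts overlapped between TGF-β library 1 and control library 3, and the normalised levels did not. With 1 copy kept per set of numbered copies, mir-692-3 had a log2 change of 2.66 and an adjusted p of 0.114 (edgeR), and 0 of 64 precursors passed. The 3 calls were lost when any of the 3 control libraries or TGF-β library 2 or 3 was left out, and were kept without TGF-β library 1. Over all alternatives the log2 change of mir-692-1 was 2.31 to 3.29, positive in 15 of 15, with adjusted p-values of 0.000174 to 0.236 (edgeR or DESeq2).

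mir-682, too, was lowest in library 1 of each group. Its counts were 23, 27 and 49 in control and 31, 152 and 170 in TGF-β EVs, so that library 1 of TGF-β lay within the control range of counts while libraries 2 and 3 lay above it. The log2 change was 2.17 ± 0.60 (SE) with an adjusted p of 0.061 (edgeR), above the threshold. Its adjusted p over the alternatives ran from 0.00173 to 0.446 (edgeR or DESeq2), and 4 of 16 were under 0.05.

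**Figure D3:**
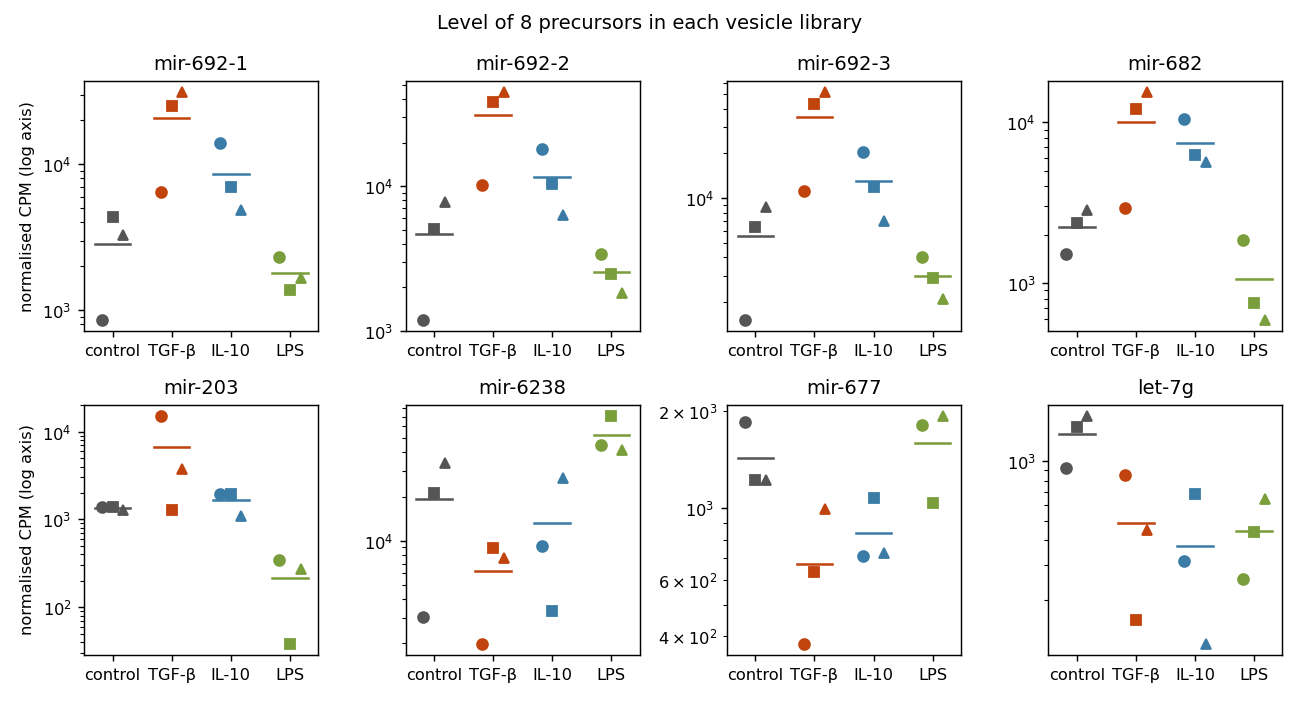
Normalised CPM (log axis, a different range in each panel) of 8 precursors in the control, TGF-β, IL-10 and LPS EV libraries. Circles, squares and triangles are libraries 1, 2 and 3 and lines are group means. For the mir-692 copies and mir-682 the 3 TGF-β points lie above the 3 control points, and for mir-677 and let-7g below them.

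The mature sequences of these precursors also occur in messenger RNAs. The 21 bases of miR-692 are found, without a mismatch, in exons of GENCODE M21 transcripts of Ftl1, which encodes the light chain of the iron store ferritin. Those of miR-682 are found in Rpl37a, a protein of the large ribosomal subunit, and those of miR-703 in Eef1a1, the elongation factor that brings aminoacyl-tRNA to the ribosome. The match runs past the mature sequence in the hairpin: 59 of 109 bases of mir-692-2 and 35 of 109 of mir-692-1 are shared in 1 run with Ftl1, 48 of 96 of mir-682 with Rpl37a, and 47 of 109 of mir-703 with Eef1a1. A count for these precursors therefore cannot be told apart from a count of a fragment of that messenger RNA in the deposited tables.

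Such matches were uncommon. Of 1020 precursors with a mature sequence, 19 (1.86%) had an exact match in a transcript of a protein-coding gene elsewhere, and of the 65 tested, 5 (7.69%) did: the 3 mir-692 copies, mir-682 and mir-24-2. Of the 19, 7 had 10 or more counts over the 6 libraries, of which 6 had more counts in TGF-β than in control EVs. The 3 copies of mir-692 are 1 sequence, so this is 4 of 5 distinct sequences. Of all 153 precursors with 10 or more counts over the 6 libraries, 55 (35.9%) had more in TGF-β EVs. mir-703, too low to test, had counts of 3, 0 and 1 in control and 2, 14 and 10 in TGF-β EVs. mir-690, which matches Fundc2, had 6, 3 and 8 against 8, 8 and 19. mir-24-2, which matches 2010111I01Rik, had 24, 16 and 28 against 2, 13 and 23, a log2 change of -0.48 ± 0.62 (SE), in the other direction. Whether that match is to its copy mir-24-1 was not tested. This grouping was made with the counts in view and is a description.

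mir-203, known for its role in skin differentiation, had 21, 16 and 22 counts in control and 158, 16 and 41 in TGF-β EVs. TGF-β library 2 lay at the control level and library 1 far above it. The log2 change of 2.29 ± 0.81 (SE) had an adjusted p of 0.213 (edgeR), and without TGF-β library 1 it was 0.85. The DESeq2 Wald test gave an adjusted p of 0.0331, and the alternatives ran from 0.0331 to 0.689. mir-6345, a little-studied precursor, had 17, 14 and 10 against 21, 22 and 15 counts, with a log2 change of 0.80 ± 0.76 (SE). Its raw counts overlapped between the groups and its normalised levels did not, and the adjusted p was 0.842 (edgeR).

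No precursor fell by the test. let-7g had 14, 17 and 29 counts in control and 9, 2 and 5 in TGF-β EVs, with every TGF-β library below every control library. Its log2 change was -1.49 ± 0.77 (SE) with an adjusted p of 0.602 (edgeR). mir-677 had 28, 14 and 21 against 4, 8 and 11 counts, also without overlap, with a log2 change of -1.09 ± 0.54 (SE) and the same adjusted p. mir-191, a precursor often found in blood and EV preparations, had 50, 6 and 20 against 10, 6 and 3 counts and a log2 change of -1.56 ± 0.77 (SE), and its groups overlapped. mir-6238 varied widely within each group, with 46, 242 and 582 against 21, 112 and 85 counts and a log2 change of -1.64 ± 0.85 (SE). mir-664, which lies within the small nucleolar RNA gene Snora36b, had 10, 16 and 76 against 1, 26 and 4 counts and a log2 change of -1.34 ± 0.85 (SE).

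The abundant precursors mir-1896 and mir-5099 were also not called. mir-1896 had counts of 168, 278 and 188 in control and 263, 207 and 258 in TGF-β EVs, a log2 change of 0.48 ± 0.69 (SE). mir-5099 had 314, 144 and 181 against 93, 156 and 114, a log2 change of -0.48 ± 0.37 (SE). In both the groups overlapped. Over all alternatives mir-1896 ran from 0.19 to 0.99 and mir-5099 from -0.77 to -0.24.

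The let-7 family had 10 of 13 members tested, of which 0 were called, 4 had positive and 6 negative estimates, and the median log2 change was -0.04 beside -0.18 over all tested. The signs of the let-7a, let-7c and let-7f copies changed with the scaling or with the libraries kept. let-7a-1 had 156, 109 and 185 counts in control and 95, 120 and 112 in TGF-β EVs, a log2 change of -0.10 ± 0.26 (SE). let-7a-2 had 146, 111 and 189 against 90, 114 and 102 counts and a log2 change of -0.18 ± 0.26 (SE). let-7f-1 stood at 53, 74 and 100 against 46, 68 and 66 counts, a log2 change of 0.00 ± 0.31 (SE). let-7c-1 stood at 77, 59 and 85 against 90, 48 and 38 counts, a log2 change of 0.05 ± 0.42 (SE). Members that share a seed thus ranged from let-7g at -1.49 to let-7b at 0.31, and none of these differences from 0 passed the test.

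Precursors reported elsewhere to rise after TGF-β had 4 of 26 members tested, with 0 called, all 4 estimates negative and a median of -0.52 beside -0.18 over all tested. mir-21a, whose maturation SMAD proteins promote in smooth muscle, had 2, 5 and 10 counts in control and 1, 4 and 3 in TGF-β EVs, a log2 change of -0.73 ± 0.94 (SE). mir-23a had 42, 35 and 59 against 18, 26 and 32 counts, a log2 change of -0.48 ± 0.37 (SE). Each TGF-β count lay below each control count, but the normalised levels overlapped, TGF-β library 3 (2891 CPM) lying above control library 1 (2772 CPM). mir-183 had 9, 6 and 18 against 2, 8 and 7 counts and a log2 change of -0.57 ± 0.86 (SE). The remaining tested member was mir-24-2, described above. Among the untested members, mir-27a had 4, 1 and 2 against 5, 8 and 6 counts, and mir-182 had 1, 0 and 11 against 0, 1 and 1. The arterial precursors mir-143 and mir-145a and the immune precursor mir-155 were at 0 in all 6 libraries.

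Precursors reported elsewhere to fall after TGF-β had 2 of 12 members tested, mir-203 and mir-29a, with 0 called, 1 positive and 1 negative estimate. mir-29a, a repressor of collagen genes, had 5, 1 and 16 against 1, 2 and 3 counts and a log2 change of -1.37 ± 1.07 (SE). Of the epithelial family that opposes mesenchymal transition, mir-200a, mir-200c, mir-141 and mir-429 were at 0 in all 6 libraries, and mir-200b had 0, 2 and 0 against 0, 1 and 0 counts. mir-34a, on the same list and untested in EVs, had 0 in all control and 3, 8 and 1 counts in TGF-β EVs. In cells it was called higher, with a log2 change of 0.56 ± 0.17 (SE) and an adjusted p of 0.0466 (edgeR). Of the alternatives run in cells, only the fit without control cell library 1 kept this call.

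Precursors that target parts of the TGF-β pathway had 7 of 28 members tested, with 0 called, 2 positive and 5 negative estimates and a median of -0.48. mir-142a, counted above, had a log2 change of 0.11 ± 0.67 (SE). mir-25, of the cluster that also holds mir-93 and mir-106b, had 20, 18 and 29 against 17, 19 and 19 counts and a log2 change of 0.08 ± 0.52 (SE). mir-93 had 1, 1 and 3 against 1, 1 and 0 counts and a log2 change of -0.88 ± 1.20 (SE). mir-146a, a brake on Toll-like receptor signalling, had 19, 12 and 3 against 14, 1 and 0 counts and a log2 change of -0.82 ± 1.38 (SE). mir-24-1 had the same counts as mir-24-2 in every library.

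Other families gave few values. The mir-23, mir-27 and mir-24 clusters had 4 of 6 members tested, all 4 negative, with a median of -0.48. Among these, mir-24-1 and mir-24-2 had identical counts, and mir-23a and mir-23b nearly the same. The untested members lay the other way. mir-27a had 4, 1 and 2 counts in control and 5, 8 and 6 in TGF-β EVs, and mir-27b 4, 1 and 2 against 5, 7 and 2. The mir-17 to mir-92 cluster and its paralogs had 4 of 15 tested, 1 positive and 3 negative, with a median of -0.56. Precursors often reported as EV cargo had 5 of 18 tested, 2 positive and 3 negative, with a median of -0.73. None of the mir-15 and mir-16, mir-30 or mir-181 families or of mir-221 and mir-222 was tested. Each list had 0 members called.

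Of the 153 precursors with 10 or more counts over the 6 libraries, those named in this paragraph and the next had 0 in 1 group. They were picked for that 0. mir-125b-1 and mir-125b-2, which make the same mature miR-125b, a regulator of macrophage activation, each had 10, 10 and 7 counts in control EVs and 0 in all TGF-β EVs. Against the floor of 3 counts over the group, they were at least 8.58-fold lower in TGF-β EVs. Bounds of this kind used library totals without TMM scaling. They cover counting error only and not the spread between libraries. mir-125b-1 had 0, 0 and 3 counts in LPS EVs and 5, 0 and 0 in IL-10 EVs. In cells it had 14, 22 and 17 in control and 4, 9 and 7 after TGF-β, a log2 change of -1.15 ± 0.40 (SE) with an adjusted p of 0.0889 (edgeR). In the other direction mir-34a, a target of p53, had 0 in all control EVs and 3, 8 and 1 in TGF-β EVs, at least 4.19-fold higher. In LPS EVs it had 10, 4 and 8 counts and in IL-10 EVs 0 in all 3. mir-301a had 0 in control and 4, 8 and 0 in TGF-β EVs, also at least 4.19-fold higher. Both bounds lean on TGF-β library 2, without which 4 counts of each were left and the bound was 2.09. Without any 1 control library the bound of mir-125b-1 was 7.92 to 9.96.

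The rest of this kind came from 1 or 2 libraries. mir-6981 had 11, 0 and 7 counts, mir-700 0, 18 and 0, and mir-6956 0, 11 and 0 in TGF-β EVs only. In control EVs only, mir-124-1 and mir-124-3, of the neuronal microRNA miR-124, had 12, 0 and 6 counts, and mir-9-1 and mir-9-3, also neuronal, 14, 0 and 0. mir-7b had 10, 0 and 0, mir-370 12, 2 and 0, mir-207 0, 12 and 2 and mir-144, a red cell precursor, 0, 0 and 11 counts in control EVs only. None of these had enough counts to be tested between the EV groups.

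The same treatment was compared in the cells that released the vesicles. There 17 of 259 tested precursors were called (edgeR), which is 6.56%, with 9 higher and 8 lower after TGF-β. The cells and the vesicles share no library. Of the 17 precursors, 8 had 10 counts or fewer over the 6 EV libraries, and these 8 include 4 at 0 in all 6. Tested in EVs were 4 of the 17, among them mir-93, which also belongs to the 8. mir-223, a myeloid precursor, fell in cells by 1.70 ± 0.25 (SE) on the log2 scale and had 0 counts in all 6 EV libraries. mir-210, the hypoxia-induced precursor, fell in cells by 1.88 ± 0.30 (SE) and had 4, 6 and 3 counts in control and 0, 6 and 2 in TGF-β EVs. mir-222 fell in cells by 1.05 ± 0.14 (SE) and had 6, 2 and 3 against 2, 9 and 0 counts. mir-504, higher in cells by 2.11 ± 0.45 (SE) on the log2 scale, was at 0 in all 6 EV libraries.

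Of the 4 that could be tested in both, mir-21a had negative estimates in both, at -1.03 ± 0.14 (SE, called) in cells and -0.73 ± 0.94 in EVs. mir-23a rose in cells by 0.58 ± 0.14 (SE) on the log2 scale and stood at -0.48 ± 0.37 in EVs. mir-23b rose in cells by 0.60 ± 0.14 (SE) and had 43, 33 and 55 counts in control and 17, 25 and 28 in TGF-β EVs, a log2 change of -0.54 ± 0.40. mir-93 rose in cells by 0.56 ± 0.14 (SE) and stood at -0.88 ± 1.20 in EVs. let-7i, untested in EVs, rose in cells by 0.74 ± 0.13 (SE) and had 12, 2 and 8 counts in control and 1, 2 and 2 in TGF-β EVs. let-7j rose in cells by 0.80 ± 0.13 (SE) and had 9, 2 and 4 against 1, 1 and 1 counts. The EV counts of mir-23a and mir-23b ran close together, and those of let-7i and let-7j had a similar pattern. Whether either pair gives separate measurements was not tested. Without TGF-β cell library 2 the cell calls of mir-23a, mir-23b and mir-93 were lost. That of mir-93 was also lost without control cell library 1, with library totals alone and with no filter on low counts. The copies of mir-692 and mir-682 were not called in cells with all libraries, and mir-682 was called there when TGF-β cell library 2 was left out. mir-692-1 had 487, 821 and 384 counts in control and 522, 354 and 637 in TGF-β cells, a log2 change of 0.11 ± 0.21 (SE). mir-682 had 345, 526 and 295 against 501, 286 and 493 in cells, a log2 change of 0.41 ± 0.20 (SE) with an adjusted p of 0.204 (edgeR). Both overlapped between the cell groups.

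The difference between the TGF-β effects in EVs and in cells was tested over all 24 libraries, and 0 of 280 precursors (0%) were called by edgeR. At an unadjusted p under 0.05 there were 30, and the DESeq2 Wald test called 12. The 12 included the 3 mir-692 copies, mir-682, mir-703, let-7g and, of the precursors at 0 in all control EVs, mir-700, mir-301a and mir-34a. The smallest p belonged to mir-692-1, with a difference of 2.97 ± 0.70 (SE) on the log2 scale and an adjusted p of 0.0705 (edgeR). mir-692-2 and mir-692-3 differed by 2.70 ± 0.71 and 2.62 ± 0.71 (SE). In the negative direction let-7i differed by -2.30 ± 0.67 (SE) and let-7j by -2.55 ± 0.75 (SE), each with an adjusted p of 0.0862 (edgeR). For mir-23a the difference was -0.83 ± 0.40 and for mir-23b -0.92 ± 0.42 (SE), with adjusted p-values of 0.465 and 0.42 (edgeR). Among 58 precursors tested in both compartments, 26 estimates had the same sign.

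**Figure D4:**
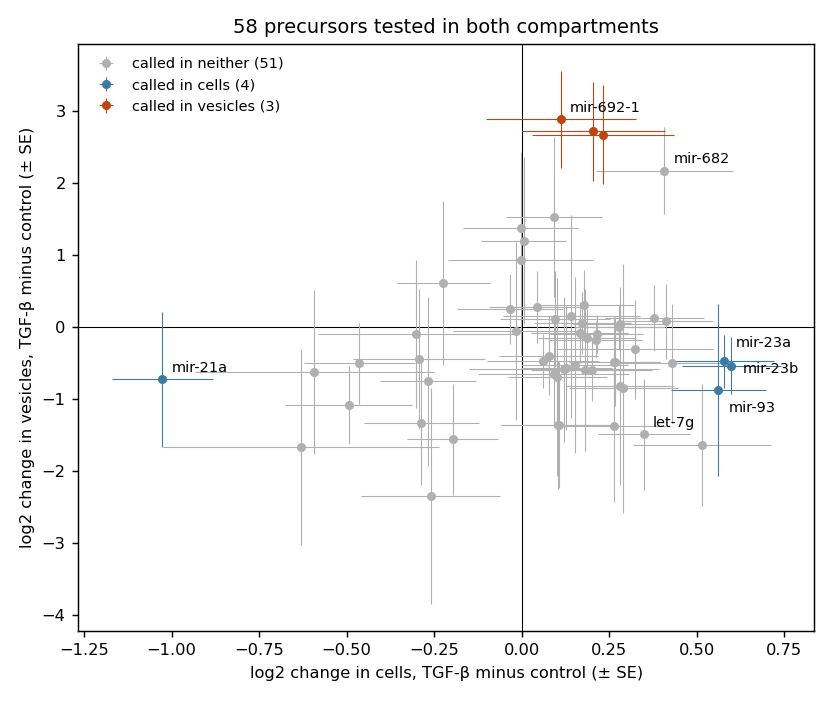
Log2 change after TGF-β in EVs (vertical) against that in cells (horizontal), each with SE, for the 58 precursors tested in both. The axes differ in range. The 3 mir-692 copies called in EVs lie within 0.11 to 0.23 in cells, and of the 4 called in cells mir-23a, mir-23b and mir-93 lie to the right of 0 and below it.

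A further 13 precursors were tested in EVs and not in cells, where their counts were too low. mir-203 had 2, 0 and 0 counts in control cells and 0 in all TGF-β cells, and mir-1896 had 1, 0 and 0 in each of these cell groups. mir-6345 was at 0 in all 6 of these cell libraries. mir-1a-1, a muscle precursor, had 12, 14 and 11 counts in control and 6, 6 and 6 in TGF-β EVs, a log2 change of -0.73 ± 0.62 (SE), and 0, 1 and 0 against 1, 0 and 0 in cells.

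TGF-β EVs were also set against EVs of the other treatments. Against LPS EVs, 22 of 71 precursors were called (edgeR), which is 31%, with 16 higher and 6 lower in TGF-β EVs. This split depended on the scaling: library totals alone gave 10 higher and 24 lower, with the median over all tested at -1.63 in place of -0.26, and a fit with neither mir-6236 nor mir-6240 gave 15 and 16. mir-692-1 was 3.54 ± 0.69 (SE) higher on the log2 scale, with 82, 72 and 93 counts in LPS EVs. mir-682 was 3.26 ± 0.62 higher, with 65, 39 and 33 counts in LPS EVs. mir-203 was 4.93 ± 0.91 higher, with 12, 2 and 15 counts in LPS EVs. mir-6345 was 4.41 ± 0.87 higher, with 5, 1 and 4 counts. mir-692-1, mir-682, mir-203 and mir-6345 each had an adjusted p of 0.00226 (edgeR) and were also called higher with library totals alone.

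The lower calls were led by mir-2137, which had 22, 11 and 14 counts in TGF-β and 348, 783 and 704 in LPS EVs. It was 3.15 ± 0.45 (SE) lower on the log2 scale with an adjusted p of 0.00073 (edgeR), and it had 49, 19 and 25 counts in control EVs. mir-6238 had 1592, 3676 and 2317 counts in LPS EVs, a log2 difference of -3.08 ± 0.89 (SE). mir-664 had 398, 590 and 385 counts in LPS EVs, a log2 difference of -3.51 ± 0.89 (SE). In each of these 3 precursors every TGF-β library lay below every LPS library. Such a lack of overlap, in either direction, held for 33 of the 71 tested (46.5%).

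Against IL-10 EVs, 0 of 71 precursors (0%) were called by edgeR, 3 had an unadjusted p under 0.05, and the DESeq2 Wald test called 0. mir-692-1 had 356, 72 and 40 counts in IL-10 EVs, where library 1 reached the raw counts of TGF-β libraries 2 and 3 and libraries 2 and 3 did not. In normalised CPM, IL-10 library 1 (14032) lay below TGF-β libraries 2 (25003) and 3 (31082). TGF-β library 1 (6464) lay below IL-10 libraries 1 and 2 (7032), so the groups overlapped. The difference, TGF-β minus IL-10, was 1.26 ± 0.63 (SE) on the log2 scale, with an adjusted p of 0.883 (edgeR). mir-682 had 266, 64 and 47 counts in IL-10 EVs and a difference of 0.43 ± 0.57 (SE). Against the control libraries, which all 3 comparisons share, the log2 change of mir-692-1 was 2.88 ± 0.67 in TGF-β, 1.62 ± 0.65 in IL-10 and -0.66 ± 0.64 in LPS EVs (SE). The corresponding changes of mir-682 were 2.17 ± 0.60, 1.74 ± 0.60 and -1.09 ± 0.59, and those of let-7g were -1.49 ± 0.77, -1.85 ± 0.78 and -1.59 ± 0.73 (SE). For let-7g the LPS and IL-10 EVs thus also had lower estimates against the same control libraries.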

How the data were processed

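Per the labels, RNA was extracted with a miRNeasy kit, and libraries were made with the SMARTer small RNA kit and sequenced on a HiSeq X. The authors deposited whole-number read counts per microRNA precursor, not normalised. The submitters' processing notes name DESeq2. Aligner, annotation and build: not given in the sources used here. Of the 8 deposited files, 6 were used and 2 were repeats. Columns name a group, not a sample.

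EVs were fitted over their 12 libraries with edgeR 4.0.16 in R 4.3.3 (TMM, filterByExpr with a minimum count of 10, quasi-likelihood F test, 8 residual degrees of freedom). Cells were fitted likewise, and the difference between compartments over 24 libraries. Calls had a Benjamini-Hochberg adjusted p under 0.05. DESeq2 1.42.0 was an alternative, and a block on the column number was added after seeing the data. Exact permutation tests used SciPy 1.17.1. The procedure was tested on simulated data. For the EV comparison only the rate of false calls was held to a limit there. A least share of changes found was required for the cells only. Sequences were matched to GENCODE M21 transcripts without mismatch.

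Precursors named were those called, the 5 of smallest p in each direction, the 15 most abundant, those called in cells and tested in EVs, members of the lists, and those with 10 or more counts in 1 group and 0 in the other. The others (mir-703, mir-690 and those without overlap or against LPS) were picked after their values were seen. Members and lists were chosen with earlier results of these data known.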

Additional observations from a re-analysis of the deposited data

How the results depend on the processing

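The number called between TGF-β and control EVs (3) was 0 with library totals alone, with a robust prior, with 1 copy per set of numbered copies and with only the 2 groups compared, 1 with mir-6236 and mir-6240 left out, 5 with the DESeq2 Wald test, and 0 to 4 when 1 library was left out. The difference between EVs and cells (0) gave 4 with the size factors of DESeq2, 3 without a filter on low counts, 3 at a mean of at least 50 counts, 12 with the DESeq2 Wald test and 0 to 4 with 1 library left out, the 4 being without TGF-β EV library 1. Calls against LPS EVs (22) were 34 with library totals alone, 11 at a mean of at least 50 counts and 12 to 21 with 1 library left out, being 12 without LPS library 2 and 13 without LPS library 3. Calls in cells (17) stayed between 14 and 25, and calls against IL-10 EVs were 0 in all alternatives run. The difference in the let-7 share (-0.98 percentage points) was -4.01 with mir-6236 left out of the total, and that in precursors detected (-13.3) was -28.9 at 1 or more counts. The difference in the mir-6236 share (-1.15 percentage points) ran from -3.96 to 0.35 with 1 library left out. A replicate block on the column number, added after seeing the data, gave 0 calls between TGF-β and control EVs, 15 in cells, 21 against LPS EVs and 0 in the other comparisons. These numbers are not tied to shared cultures by the labels, and same-numbered control and TGF-β EV libraries correlated, as deviations from their group means, at 0.213, -0.0749 and 0.122, with 1 control and 2 TGF-β libraries correlating best with their own number. Of 395 values of 26 named precursors under alternatives, 326 kept direction and side of the threshold, 30 lost the threshold, all of them copies of mir-692, 5 gained it (mir-682 and mir-203) and 34 changed sign, none of them called. On the log2 scale, with the size factors of DESeq2 and with its Wald test, let-7a-1 was 0.12 and 0.11, let-7a-2 0.035 and 0.032, let-7c-2 0.18 and 0.17 and let-7f-1 0.21 and 0.22. With library totals alone let-7c-1 was -0.29, let-7f-2 -0.23, mir-6236 -0.034 and mir-6240 -0.14. Without a filter let-7c-1 was -0.14 and let-7f-2 -0.067, and at a mean of at least 50 counts let-7f-1 was 0.089. With 1 copy kept let-7c-2 was 0.0056 and let-7f-1 0.029. let-7f-2 was -0.0095 with neither mir-6236 nor mir-6240 and -0.015 with only the 2 groups. With the replicate block let-7c-1 was -0.042 and let-7f-1 0.0079. With 1 library left out, let-7c-1 ran from -0.53 to 0.34, let-7c-2 from -0.62 to 0.20, let-7f-1 from -0.34 to 0.16, let-7f-2 from -0.28 to 0.25 and mir-6240 from -0.090 to 0.42. The cause of these shifts was not tested, except that keeping 1 copy or 2 groups leaves fewer precursors or libraries. Depth, at most 18047 counts a library with most of them mir-6236, limits what could be tested.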

Other observations

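Precursors typical of oligodendrocytes, endothelium and red cells were few in these EVs, and most counts of each came from 1 library. Control library 1 held most of mir-219a-1 (9, 0 and 1 counts, against 1, 0 and 0 in TGF-β EVs), mir-219a-2 (10, 0 and 0, against 0, 1 and 0) and mir-338 (8, 0 and 0, against 0, 1 and 0), the oligodendrocyte precursors. The endothelial precursor mir-126a had 0, 1 and 0 counts in control and 0, 20 and 0 in TGF-β EVs. The red cell precursor mir-486a had 0, 0 and 12 against 0, 3 and 0. None of these had enough counts for the EV comparison.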
